A study of Mus musculus with 69 samples.

Results

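Mouse prostate organoids, clusters of prostate epithelial cells grown in culture, were compared between the genotypes labelled TKO and PtP after 8 days in DMSO, the solvent control, with no pathway inhibitor. The comparison takes all 3 TKO and all 3 PtP libraries of this arm, 6 of the 69 bulk polyA RNA-seq libraries of the series, and covers 18430 genes. Neither the labels nor the files spell out which genes the names PtP and TKO stand for, how they were altered, or whether the 3 libraries of a group came from separate cultures. Each genotype may therefore be 1 line, and the p-values given here reflect variation among libraries, which may be technical. The same table holds organoids labelled WT in DMSO, and all 3 genotypes after 8 days with YAPi_NOTCHi or with COMBO, agents given only as these codes. Those groups, also of 3 libraries each, are used for levels and for the same TKO against PtP contrast in other conditions.

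Loss of the tumour suppressors Trp53 and Rb1 is a common route to aggressive prostate cancer, and their combined loss is known from tumours with neuroendocrine features. The RB proteins (Rb1, Rbl1 and Rbl2) bind E2F transcription factors and hold back genes for DNA synthesis until cyclin-dependent kinases release them. Trp53 encodes p53, which turns on arrest and death genes after damage. Basal prostate cells carry Krt5 and Trp63, luminal cells carry Krt8, and neuroendocrine cells carry factors such as Insm1 and secretory proteins such as Chga.

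The RNA of Trp53 and Rb1 was read first. Levels are in CPM, reads scaled to a common library total with a TMM correction for RNA composition. Trp53 (chromosome 11, 69580348 to 69591873 in GRCm38.p6) stood at 54.3, 50.3 and 49.98 CPM in PtP and at 65.6, 64.8 and 65.4 in TKO, against 170 in WT. It was thus lower than WT in both genotypes. Rb1 (chromosome 14, 73192858 to 73325951) stood at 21.2, 18.7 and 20.96 CPM in PtP, at 23.5, 22.8 and 22.5 in TKO and at a mean of 23.2 in WT. No group was set apart by low Rb1 RNA, and the TKO libraries lay slightly above PtP (log2 0.17 ± 0.06 SE, adjusted p 0.0276), a call that was lost in 4 alternatives. The count of a whole gene does not show whether a part of it was deleted or whether protein was made, so these values do not identify the gene that separates TKO from PtP.

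The 6 libraries were deep and close to each other. PtP libraries held 23255318 to 27184653 counts and TKO libraries 22347187 to 37837763. The common biological coefficient of variation, estimated over all 27 libraries of the genotype table, was 2.37%. With so little spread, small differences pass: 4895 genes (26.6% of those tested) differed at an adjusted p under 0.05 by edgeR's quasi-likelihood test with Benjamini-Hochberg adjustment, 2422 of them higher in TKO (13.1%) and 2473 lower (13.4%). The genes tested passed a low-count filter over all 27 libraries, while 15251 passed it with only the 6 compared. The median absolute log2 fold change of the called genes was 0.21. Only 170 genes (0.922%) rose and 44 (0.239%) fell at least 2-fold, and 104 of the 170 had a mean under 1 CPM in both groups. Every TKO library lay above every PtP library for 3363 genes (18.2%) and below for 3366 (18.3%). These shares are the background for the counts that follow, in which "rose" and "fell" mean higher or lower in TKO with an adjusted p under 0.05.

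**Figure D1:**
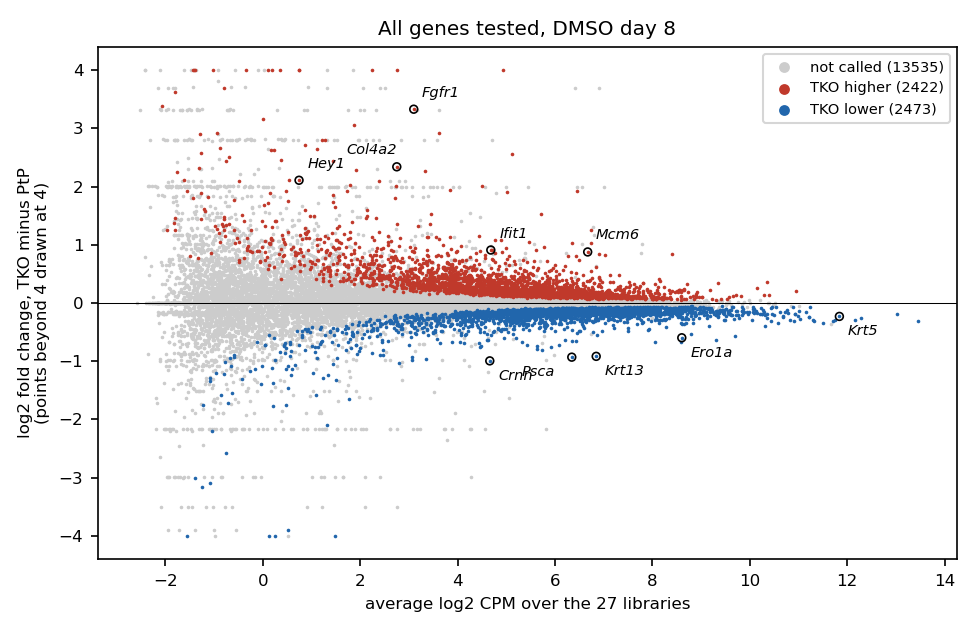
Log2 fold change of TKO over PtP in DMSO (vertical) against the average log2 CPM over the 27 libraries of the table (horizontal), 1 point per gene tested. Red points are the 2422 genes that rose, blue points the 2473 that fell, and grey points were not called. Most called genes lie within 1 log2 unit of 0, and the largest rises are among low genes such as Fgfr1.

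DNA replication genes rose nearly without exception. Of 33 replication genes, 32 rose and 0 fell, with a median log2 fold change of 0.41 beside 0.00 over all genes tested. Against WT, 19 of them were lower in PtP and 4 higher, with a median of -0.14. Of all 18430 genes tested, 11228 were called between PtP and WT in either direction. That contrast uses the same PtP libraries, so a low PtP value moves it and the TKO against PtP contrast in opposite directions. Mcm6, Mcm4, Mcm3 and Mcm2, subunits of the helicase that opens DNA at origins, had the largest rises of the list. Mcm6 stood at 123, 119 and 122 CPM in PtP and at 220, 218 and 230 in TKO, a log2 fold change of 0.88 ± 0.03 (SE, adjusted p 4.41e-26). The lowest TKO library was well above the highest PtP library. Mcm4, Mcm3 and Mcm2 rose by 0.71, 0.65 and 0.64 on the log2 scale.

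The RB and E2F factors themselves rose next to their known targets. Of 18 factors, 13 rose and 0 fell, with a median of 0.28. E2f1, an activator of S-phase genes, stood at 15.7, 15.5 and 15.4 CPM in PtP and at 22.2, 22.4 and 21.98 in TKO (log2 0.52 ± 0.06, adjusted p 3.16e-08). Rbl1, which encodes the RB relative p107 and is itself an E2F target, stood at 51.5, 51.9 and 53.3 CPM in PtP and at 76.1, 71.4 and 75.6 in TKO (log2 0.51 ± 0.04). In both genes the 2 groups did not overlap. E2f2, another activator, rose by 0.62, while Rbl2, the RB relative p130, had a log2 fold change of -0.09 and did not pass (adjusted p 0.293).

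The bases just before the transcription start of Mcm6 and Rbl1 are shown because members of these lists moved together and E2F factors are known to act close to starts. The sequences are RefSeq's for GRCm38.p6, 5′ to 3′ on the gene's strand, and capitals mark the words searched, TTTGGCGC, TTTCGCGC, TTTCCCGC and TTTGCCGC on either strand. The first 2 words overlap each other on opposite strands at the first mark in Mcm6.
Mcm6 (chr1:128359706-128359825, minus strand): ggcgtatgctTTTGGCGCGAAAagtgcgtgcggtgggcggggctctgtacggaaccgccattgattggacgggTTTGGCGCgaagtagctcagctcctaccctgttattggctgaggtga
Rbl1 (chr2:157204535-157204634, minus strand): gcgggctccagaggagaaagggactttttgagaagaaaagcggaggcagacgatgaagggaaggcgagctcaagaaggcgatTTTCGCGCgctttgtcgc

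In Mcm6 the words begin 110 and 47 bases before the start on the gene's own strand, and in Rbl1 the word begins 18 bases before it. Over windows of 300 bases, from 250 before to 50 after the start, 13 of the 26 replication genes with a window held a word (50%), and so did 6 of 14 RB and E2F factors (42.9%). The share was 4.4% over all tested genes with a window, 534 of 12128, the number matched by symbol out of 18430. It was 1 of 26 (3.85%) for mitosis genes and 0 of 11 for nucleotide synthesis genes. A match is a description of letters and not of a bound site.

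The cyclins and kinases that carry cells from G1 into S phase rose in part. Of 14 genes, 11 rose and 1 fell, with a median of 0.25, and the fall was lost in 4 of the 6 fits without a library. Ccne1, the cyclin E1 that drives S-phase entry with Cdk2, stood at 7.27, 8.72 and 7.13 CPM in PtP and at 14.2, 13.9 and 14.1 in TKO (log2 0.87 ± 0.08, adjusted p 1.81e-11). Its level in TKO was close to the WT mean of 12.9, with PtP below both. Ccne2 rose by 0.65, Cdt1, which loads the MCM helicase, by 0.43, and Cdk2 by 0.34. Ccnd1, the cyclin D1 that acts before RB is released, stood at 763, 764 and 762 CPM in PtP and at 766, 765 and 752 in TKO, and did not pass (log2 0.00, adjusted p 0.968).

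Inhibitors of these kinases went both ways, with 4 of 7 that rose and 2 that fell. Cdkn2a, which encodes p16 and ARF, stood at 80.3, 83.6 and 79.7 CPM in PtP and at 110, 114 and 111.9 in TKO (log2 0.47 ± 0.03, adjusted p 2.37e-14). The WT mean was 15.9, and PtP already lay above WT by a log2 fold change of 2.35. Cdkn1c, the inhibitor p57 and an imprinted gene, rose by 0.72, and Cdkn2c, p18, by 0.50. Cdkn1a, the p53 target p21, stood at 90.6, 89.3 and 88.5 CPM in PtP and at 75.7, 81.1 and 77.7 in TKO, so that it fell by 0.19. Cdkn2b, p15, fell by 0.23.

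Genes of nucleotide synthesis and mitosis rose without exception. All 12 nucleotide synthesis genes rose (median 0.29), among them Dut, which removes dUTP, by 0.40 and Rrm1, a ribonucleotide reductase subunit, by 0.39. All 30 mitosis genes rose too, with a median of 0.24. Against WT, PtP was lower for 9 nucleotide synthesis genes and higher for 1 (median -0.40), at the same threshold. In that contrast, which shares the PtP libraries, 11228 of all 18430 genes tested were called. For mitosis genes PtP was lower than WT in 22 and higher in 1 (median -0.23). The mean log2 CPM of the mitosis list was 5.91 in WT libraries, 5.68 to 5.69 in PtP and 5.95 to 5.96 in TKO. Mki67, the proliferation marker Ki-67, stood at 114, 117 and 128 CPM in PtP and at 172, 171 and 180 in TKO (log2 0.54 ± 0.03, adjusted p 1.34e-16), the largest rise in that list. The kinetochore gene Cenpf rose by 0.43 and the centrosome kinase gene Nek2 by 0.37.

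DNA repair and chromatin genes that are active in S phase followed. Of 16 repair genes 13 rose and 0 fell (median 0.31), led by Fanca, a Fanconi anaemia core gene, at 0.61, and by the checkpoint kinase Chek1 and the recombination gene Brca2, both at 0.56. Of 16 chromatin genes 10 rose and 0 fell (median 0.22). Dnmt1, which copies DNA methylation behind the fork, stood at 88.9, 99.6 and 93.7 CPM in PtP and at 146, 145 and 142 in TKO (log2 0.62 ± 0.03, adjusted p 2.13e-18). The chromatin remodeller Hells rose by 0.47 and Ezh2, the Polycomb methyltransferase, by 0.28. In bulk samples a change in the number of cells of a type and a change in RNA per cell cannot be told apart.

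**Figure D2:**
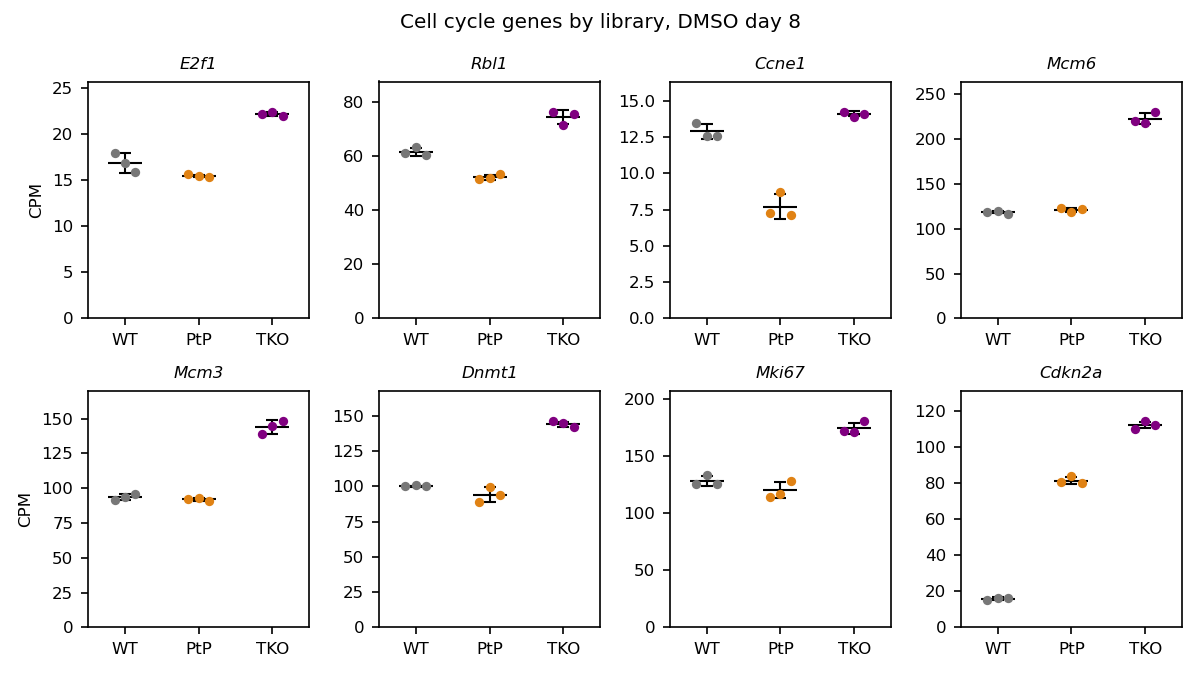
CPM of 8 cell cycle genes (vertical, from 0) in the 3 WT, 3 PtP and 3 TKO libraries in DMSO. Points are libraries, horizontal marks the means and bars the SD. For all 8 genes the TKO points lie above the PtP points. WT lies near PtP for Mcm6 and Mcm3, near TKO for Ccne1, and far below both for Cdkn2a.

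Targets of p53 changed little. Of 24, 0 rose and 6 fell (13.4% fell among all genes), with a median of -0.03. The number that rose was 1 with upper-quartile scaling, a stricter filter on low counts, a replicate block, or without TKO replicate 2. Pmaip1, the death gene known as Noxa, fell by 0.41 and Perp, a desmosome gene also under p63, fell by 0.30. Trp53 itself rose by 0.34 (adjusted p 1.68e-09). Among 18 apoptosis genes 7 rose and 3 fell.

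Squamous genes had the lowest median of the lists plotted. Prostate organoids can take on a stratified, skin-like programme, marked by keratins of suprabasal layers and cornified envelope proteins. Of 19 squamous genes, 15 fell and 0 rose, with a median of -0.65. Krt13 (chromosome 11, 100117327 to 100121566), a keratin of stratified mucosa, stood at 77.7, 81.3 and 76.5 CPM in PtP and at 40.5, 42.9 and 40.9 in TKO (log2 -0.92 ± 0.04, adjusted p 7.58e-21). The WT mean was 737, so PtP and TKO lay on the same side of WT and TKO lay farther from it.

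Crnn, which encodes cornulin, was not on the list but was among the lowest called genes by size. It stood at 47.1, 48.3 and 48.2 CPM in PtP and at 21.6, 25.4 and 24.5 in TKO, against 203 in WT (log2 -0.99 ± 0.05). Krt10, a suprabasal keratin, fell by 0.76, and Klf4, a factor of epidermal barrier formation, fell by 0.49. Krt6b and Sprr1b were low, at 1.12 to 1.40 and 1.32 to 1.76 CPM in PtP, and both fell. The Sprr1b call was lost without PtP replicate 1 (log2 -0.69, adjusted p 0.0861).

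Basal genes fell in smaller steps. Of 24, 16 fell and 0 rose, with a median of -0.16. Krt5 stood at 3886, 4012 and 3916 CPM in PtP and at 3348, 3364 and 3363 in TKO (log2 -0.23 ± 0.02, adjusted p 3.7e-12). Trp63, the p63 factor that maintains basal cells, fell by 0.13. Dsg3, a desmosomal cadherin, had the largest fall of the list at 0.64, and Col17a1, a hemidesmosome collagen, fell by 0.29. Of 18 junction genes 10 fell and 1 rose, or 2 without PtP replicate 1.

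Luminal genes were split, with 7 of 26 that rose and 11 that fell. Psca, a surface antigen of luminal progenitors, stood at 193, 184 and 179 CPM in PtP and at 101, 99.1 and 91.6 in TKO (log2 -0.93 ± 0.03, adjusted p 7.36e-25). Gata2, a zinc finger transcription factor, rose by 0.89. Mme, the membrane protease neprilysin, is on the androgen and glucocorticoid list and not on the luminal one, and rose by 0.96. Krt8 rose by 0.07, and that call was lost under 1 other scaling and in 3 of the 6 fits without a library.

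Most neuroendocrine genes were near 0 in both genotypes. Of 30 listed genes, 6 had 0 counts in all 6 libraries and 27 were under 1 CPM in all 6. The other 3 were Cpe, a prohormone carboxypeptidase, and Sox2 and Ncam1, a stem cell factor and an adhesion molecule. Cpe stood at 474, 468 and 465 CPM in PtP and at 393, 399 and 402 in TKO, and made up most of the summed level of the list, which was 562 to 570 CPM in PtP and 484 to 495 in TKO. Sox2 had means of 56.5 and 53.8 CPM in PtP and TKO and Ncam1 of 38.1 and 35.7, and neither passed the test. Insm1 had 0, 2 and 1 counts in the PtP libraries and 3, 3 and 3 in the TKO libraries, Foxa2 had 0 to 2 counts in any library, and Chga had 0 in PtP and 2, 2 and 0 in TKO. None of these 3 passed the test. Of the 28 tested, 1 rose and 1 fell: Prox1, at 0.0840 to 0.147 CPM in PtP and 0.144 to 0.393 in TKO, where the groups overlapped and the call was lost in 4 of the 6 fits without a library, and Cpe, which fell by 0.24. Without PtP replicate 1 or PtP replicate 2 the count that fell was 2. The epithelial keratins Krt5 and Krt8 were present in every library.

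**Figure D3:**
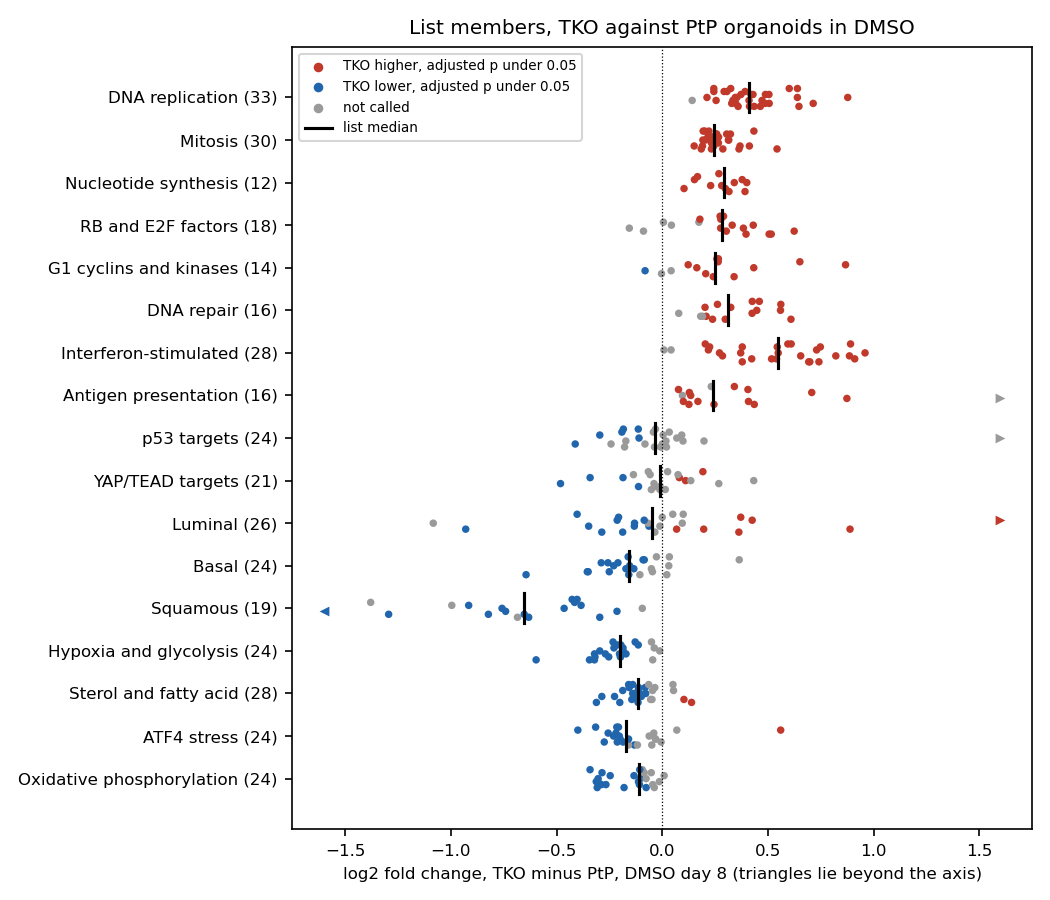
Log2 fold change of TKO over PtP (horizontal) for the tested members of 17 gene lists, with the number tested in brackets. Points are genes, black bars list medians, and triangles members beyond the axis. DNA replication and interferon-stimulated genes have the highest medians, 0.41 and 0.55, and squamous genes the lowest, -0.65.

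Interferon-stimulated genes had the highest median of the lists plotted. These genes are switched on after interferon or viral nucleic acid is sensed. Of 28, 26 rose and 0 fell, with a median of 0.55. Ifit1, an antiviral RNA-binding protein (chromosome 19, 34640889 to 34650009), stood at 48.2, 48.8 and 53.5 CPM in PtP and at 92.3, 94.5 and 95.8 in TKO (log2 0.91 ± 0.04, adjusted p 5.1e-21). The WT mean was 3.14, so the order was WT, PtP, TKO with no overlap. Ifit3 rose by 0.96, and Ifi44 and Mx2 each by 0.89. Reads shared among near copies may be split between them by the authors' counting, so values of Ifit3, which has the copy Ifit3b, and of Krt6b, which resembles Krt6a, are less certain.

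Promoters of Ifit1 and Ifit3 are shown because this list moved together and its known response element lies close to the start. Capitals mark GAAANNGAAA, the core of that element, searched on either strand. In both genes it lies on the strand opposite to the one printed.
Ifit1 (chr19:34640759-34640838, plus strand, GRCm38.p6): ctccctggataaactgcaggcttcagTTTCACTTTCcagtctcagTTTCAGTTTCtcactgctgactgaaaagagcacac
Ifit3 (chr19:34583349-34583448, plus strand, GRCm38.p6): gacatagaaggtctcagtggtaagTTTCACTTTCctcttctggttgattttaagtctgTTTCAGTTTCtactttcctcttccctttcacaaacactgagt

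The copies begin 104 and 85 bases before the start in Ifit1 and 156 and 122 bases before it in Ifit3. Of 20 interferon genes with a window, 11 held the word (55.0%), against 3.59% of all tested genes with a window and 0 of the 26 replication genes. Each printed window is marked only for its own kind of word, the E2F words in Mcm6 and Rbl1 and this word in Ifit1 and Ifit3.

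Antigen presentation genes, many of them also induced by interferon, rose in 13 of 16 cases with 0 that fell (median 0.24), and in 8 cases without TKO replicate 2. Psmb8, an immunoproteasome subunit, stood at 18.5, 18.7 and 16.6 CPM in PtP and at 29.98, 29.01 and 29.1 in TKO (log2 0.71 ± 0.07), against 2.54 in WT. Nlrc5, the activator of MHC class I genes, rose by 0.87. Zbp1, a sensor of left-handed nucleic acid named here outside the naming rule, stood at 5.42, 6.20 and 6.01 CPM in PtP and 12.9, 11.8 and 11.4 in TKO, and rose by 1.03. Of 23 chemokine and NF-kB genes 9 rose and 2 fell (1 without TKO replicate 3), with the neutrophil chemokine Cxcl5 up by 0.53.

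**Figure D4:**
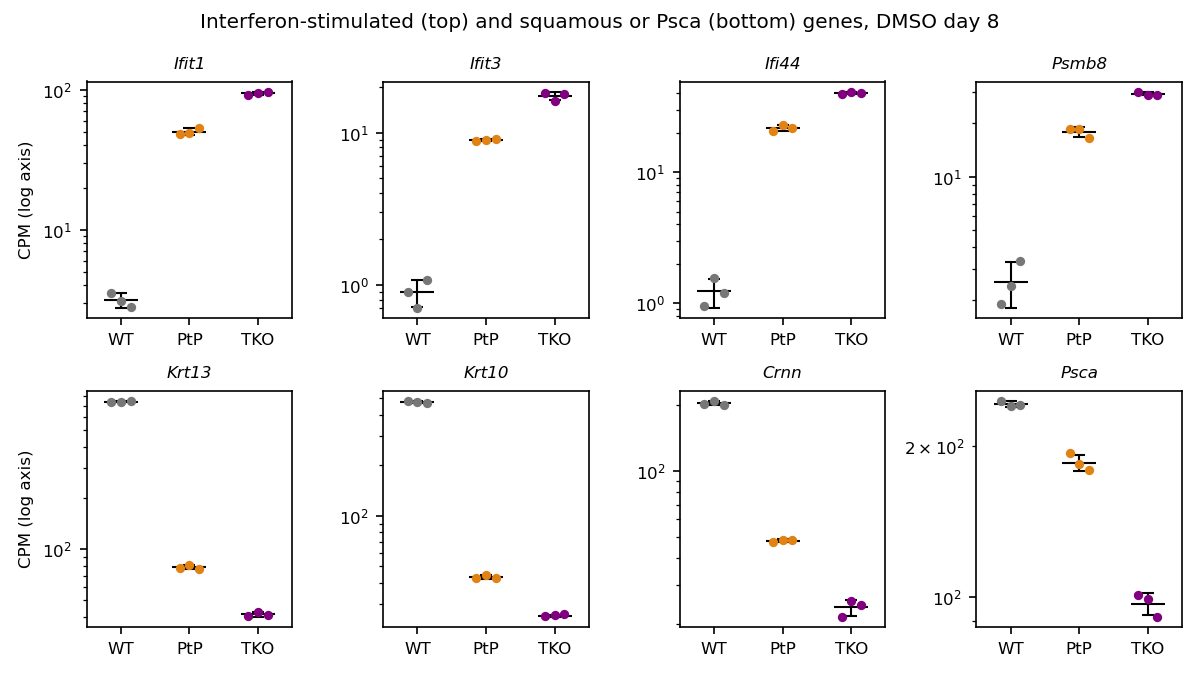
CPM on a log axis of 4 interferon-stimulated or antigen presentation genes (top) and of 3 squamous genes and Psca (bottom) in the WT, PtP and TKO libraries in DMSO. Points are libraries, marks means and bars SD, n = 3. The top genes climb from WT to PtP to TKO, with Ifit1 means of 3.14, 50.2 and 94.2, and the bottom genes descend in the same order, with Krt13 means of 737, 78.5 and 41.4.

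Genes of metabolism and stress fell by small amounts. Of 24 hypoxia and glycolysis genes 20 fell and 0 rose, with a median of -0.20. Ero1a, an oxidase of protein folding that is induced by low oxygen, stood at 1380, 1368 and 1402 CPM in PtP and at 918, 901 and 925 in TKO, next to a WT mean of 919 (log2 -0.60 ± 0.02, adjusted p 2.01e-24). Ndrg1 fell by 0.32, and Ndufa4l2, a target of the oxygen-sensing factor HIF-1, by 0.80. Of 24 oxidative phosphorylation genes 16 fell and 0 rose, with a median of -0.11. The mitochondrially encoded members fell by 0.25 (mt-Co3) to 0.34 (mt-Nd1), while the largest nuclear fall was 0.18 (Uqcrc2). The mt-Nd1 level was 1679, 1724 and 1659 CPM in PtP and 1318, 1297 and 1381 in TKO.

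Sterol and stress lists fell alike in direction. Of 28 sterol and fatty acid genes 19 fell and 2 rose, a count of rises that was 0 or 1 in 4 of the 6 fits without a library. Of 24 genes of the ATF4 amino acid response 14 fell and 1 rose, led by the cystine transporter Slc7a11 at -0.40. Of 21 redox genes under NRF2 12 fell and 1 rose, with the glutathione transferase Gstp1 at 496, 491 and 467 CPM in PtP and 346, 350 and 354 in TKO (log2 -0.47 ± 0.02).

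YAP/TEAD genes were near the background in this arm. Of 20 YAP/TEAD factors 3 rose and 4 fell, and of 21 YAP/TEAD targets 3 rose and 4 fell (median -0.01), close to the shares of all genes. Fits without a library left 1 rising target without TKO replicate 2 or PtP replicate 1, 2 falling targets without TKO replicate 3 or PtP replicate 3, and 1 and 2 falling factors without PtP replicate 2 and PtP replicate 3. Yap1 stood at 356, 348 and 351 CPM in PtP and at 347, 331 and 339 in TKO (log2 -0.06, adjusted p 0.0896), and Ccn2, a YAP target, did not pass either (log2 -0.01, adjusted p 0.851). The Yap1 difference passed under 2 other settings and without TKO replicate 1, at log2 -0.07. Of 9 Notch targets tested 1 rose and 3 fell, and of 15 Notch receptors and ligands 2 rose and 5 fell, or 3 without TKO replicate 1, TKO replicate 2 or PtP replicate 2. Notch1 rose by 0.23, while Nrarp, a feedback target of Notch signalling, fell by 0.31. Hey1, another Notch target, was low at 1.18, 1.12 and 1.86 CPM in PtP and reached 5.79, 5.59 and 6.53 in TKO (log2 2.11 ± 0.18).

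Matrix genes held some of the larger rises among genes above 1 CPM. Of 21 collagen and matrix genes 10 rose and 2 fell. The number that rose was 6 without TKO replicate 2 or PtP replicate 1, and 0 or 1 fell in each of the 6 fits without a library. Col4a2, a basement membrane collagen chain (chromosome 8, 11312805 to 11449287), stood at 2.02, 2.24 and 1.71 CPM in PtP and at 10.5, 10.05 and 9.79 in TKO, against 17.7 in WT (log2 2.34 ± 0.12, adjusted p 1.75e-18). Col4a1, its partner chain and neighbour on the chromosome (11198423 to 11312889, the 2 annotations overlapping at their ends), stood at 28.6, 30.4 and 31.96 CPM in PtP and 44.4, 45.9 and 49.8 in TKO, a smaller rise of 0.62. Fibronectin, Fn1, rose by 0.66. Of 9 laminin chains 1 rose and 3 fell, and of 25 integrin and adhesion genes 6 rose (3 without TKO replicate 2) and 6 fell.

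Growth factor genes held the largest rise among the genes named for size. The floor for that naming, an average log2 CPM of 3, was taken over all 27 libraries. Fgfr1 was higher in libraries with the agents than in DMSO, with means of 10.6 CPM in PtP and 7.94 in TKO with YAPi_NOTCHi. Fgfr1, an FGF receptor tied to epithelial plasticity in prostate, stood at 0.462, 0.0933 and 0.391 CPM in PtP and at 3.34, 3.45 and 2.88 in TKO, against 0.872 in WT (log2 3.33 ± 0.24, adjusted p 3.86e-14). The EGF receptor ligand Areg stood at 63.3, 59.5 and 59.4 CPM in PtP and at 39.01, 39.1 and 39.9 in TKO (log2 -0.63 ± 0.04). Over 31 genes of the EGF, FGF and MAPK list 8 rose (5 without PtP replicate 1) and 11 fell. Igfbp4, an IGF-binding protein named outside the rule, rose from 2.69, 3.50 and 2.54 CPM to 11.5, 11.8 and 11.8.

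Of the remaining high and low genes, the chemokine receptor Cxcr4 rose from 0.537 to 0.746 CPM in PtP to 2.11 to 2.75 in TKO. Pitx1, a hindlimb homeobox gene, fell from 71.4 to 74.2 CPM to 42.8 to 45.2. Myc fell by 0.11 (adjusted p 0.0034). Of 21 PI3K, AKT and mTOR genes 4 rose and 0 fell, of 27 TGF-beta and BMP genes 9 rose and 1 fell, and of 30 Wnt genes 5 rose and 5 fell. Without TKO replicate 2 or PtP replicate 2 the TGF-beta and BMP genes that fell were 2 and 3. The Wnt counts that rose were 3 without TKO replicate 1, TKO replicate 2, PtP replicate 2 or PtP replicate 3, and those that fell 3 without TKO replicate 1, TKO replicate 3 or PtP replicate 2.

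Not all listed markers of other cell types were measured, and those that were moved in part with the genotype. Of 12 fibroblast markers listed 4 were measured, and Col1a1, Col1a2, Pdgfrb and Lum were not. Of the 4 measured, 2 rose (1 without TKO replicate 2 or PtP replicate 1). Their summed level was 161 to 163 CPM in PtP and 180 to 189 in TKO. Nearly all of it was Dcn, decorin, at 160, 161 and 160 CPM in PtP and 180, 178 and 187 in TKO, against 5.93 in WT, while Pdgfra had at most 6 counts. Of 16 immune markers listed 4 were measured, and Ptprc, Csf1r and Adgre1 were not. Of the 4 measured, Cd14 rose by 0.27 and Cd68 fell by 0.52, with Itgam and Lyz2 at no more than 10 and 4 counts. Among the 10 of 13 neuron and glia markers measured 1 rose and 1 fell. The neuronal Map2 rose by 0.85, and Mbp, the most abundant, fell by 0.12 (means of 214 CPM in PtP and 196 in TKO). Tubb3 stood at 5 to 10 counts and Dcx at 0, and without PtP replicate 3 a second marker of this list rose. Of 9 endothelial markers listed 5 were measured, and Cdh5, Kdr, Tie1 and Emcn were not. Of the 5 measured, 3 fell and 0 rose, with sums of 5.25 to 6.21 CPM in PtP and 3.71 to 3.98 in TKO. Esam, an endothelial adhesion molecule, fell by 0.50. Vwf fell by 0.98 at low means of 0.73 CPM in PtP and 0.33 in TKO, with 8 to 23 and 3 to 19 counts. Pecam1, under 1 CPM in every library, was called too, and 1 of the 3 calls was left in 5 of the 6 fits without a library. Their part in the results above was not tested. Median log2 fold changes per chromosome lay between -0.03 and 0.02 over 12603 genes.

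The same genotype contrast was also read in organoids given the agents. With YAPi_NOTCHi, 6366 genes were higher in TKO than in PtP (34.5%) and 6416 lower (34.8%), and with COMBO 6781 were higher (36.8%) and 6992 lower (37.9%). Of the 2422 genes that rose in DMSO, 1348 were also higher with YAPi_NOTCHi (55.7% of the DMSO list and 21.2% of the other) and 662 were lower (27.3%). Of the 2473 that fell, 1595 were also lower (64.5% and 24.9%) and 479 were higher (19.4%). With COMBO the same-direction counts were 1412 and 1706. The contrasts use different libraries of the same genotypes.

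The difference between contrasts was tested by itself. The TKO against PtP difference was higher with YAPi_NOTCHi than in DMSO for 4462 genes (24.2%) and lower for 5239 (28.4%), and with COMBO higher for 4730 (25.7%) and lower for 5754 (31.2%). All 33 replication genes and all 30 mitosis genes were among the higher ones with both agents. The replication median went from 0.41 in DMSO to 2.06 with YAPi_NOTCHi and 2.38 with COMBO, and the mitosis median from 0.24 to 3.21 and 4.76.

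Single genes show which genotype moved. Mcm6 had mean levels of 121 CPM in PtP and 223 in TKO in DMSO, 22.4 and 151 with YAPi_NOTCHi, and 16.7 and 200 with COMBO. The PtP level was far lower with the agents, while the TKO level stayed within 1.5 times. Mki67 had means of 120 and 174 CPM in DMSO, 18.5 and 168 with YAPi_NOTCHi, and 8.16 and 319 with COMBO.

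Other groups changed their contrast in other ways. The hypoxia and glycolysis median turned from -0.20 in DMSO to 0.41 with YAPi_NOTCHi and 0.38 with COMBO, and 19 of 24 genes tested higher in the difference with either agent. Ero1a had means of 1383 CPM in PtP and 915 in TKO in DMSO, and 51.5 and 110 with YAPi_NOTCHi. Of 28 interferon genes 23 were higher in TKO with YAPi_NOTCHi and 15 with COMBO, where 8 were lower. Ifit1 stood at means of 20.9 and 22.2 CPM in PtP and TKO with YAPi_NOTCHi and at 22 and 16 with COMBO.

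Rb1 and Fgfr1 also differed between the contrasts. Most neuroendocrine genes did not pass the test of the difference, which could decide little where DMSO counts were near 0. Insm1 had means of 46.2 CPM in PtP and 254 in TKO with YAPi_NOTCHi, and 122 and 402 with COMBO. The difference of its contrast from that in DMSO, where its counts were at most 3, did not pass edgeR's test (log2 1.145, adjusted p 0.586, and 0.42, adjusted p 0.871). Of 28 tested neuroendocrine genes 25 were higher in TKO with YAPi_NOTCHi and 24 with COMBO, beside 34.5% and 36.8% of all genes. Genes with almost no counts in DMSO, such as Insm1, passed the low-count filter only through libraries with the agents. In the test of the difference from DMSO 9 and 7 of the 28 were higher, beside 24.2% and 25.7% of all genes. With each, 1 was lower, beside 28.4% and 31.2% of all genes. Rb1 stood at means of 22.6 CPM in PtP and 61 in TKO with YAPi_NOTCHi and at 28 and 83 with COMBO, log2 fold changes of 1.44 and 1.55 that were 1.27 and 1.38 above that in DMSO (adjusted p 1.02e-17 and 9.15e-20). Fgfr1 had means of 10.6 and 7.94 CPM with YAPi_NOTCHi, so that its order was the opposite of that in DMSO (difference in log2 fold change -3.76, adjusted p 4.66e-16).

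**Figure D5:**
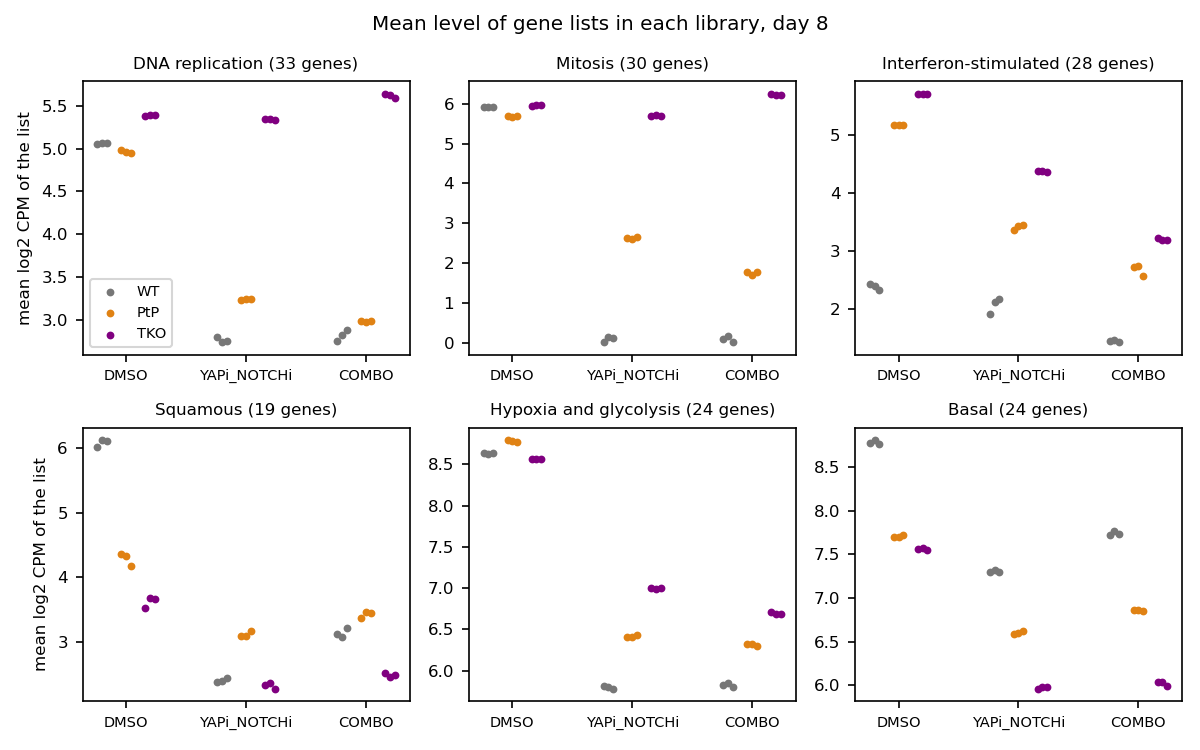
Mean log2 CPM of 6 gene lists (vertical) in each library of WT, PtP and TKO under DMSO, YAPi_NOTCHi and COMBO (horizontal), n = 3 libraries per group, 1 point each. The DMSO gap between PtP and TKO in replication genes, about 4.95 to 4.99 against 5.38 to 5.40, is small beside the gaps with the agents, where PtP lies far below its DMSO level and TKO near it.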

How the data were processed

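The authors deposited estimated counts per gene, made with genome build mm10 per the submitters' processing notes, and library totals differ, as in unscaled values. The sources used here do not name the aligner, the counting program or the gene models. From 18996 lines, 12 without a name were dropped and 17 names were summed, which left 18966, and values were rounded to whole counts. All 27 libraries of the genotype table were fitted with edgeR 4.0.16 (R 4.3.3) as 9 group means, with TMM factors, filterByExpr (about 10 counts) and quasi-likelihood F-tests, 2-sided, adjusted by Benjamini-Hochberg over 18430 genes. The 6 comparisons were fitted in the same model. DESeq2 1.42.0, other scalings and filters, and leaving out libraries were alternatives. The scripts were tested on simulated data. Gene positions are RefSeq's in GRCm38.p6. Genes named are key genes, for each of 49 lists the 4 called members with the largest change, and the 15 called genes farthest up and the 15 farthest down among those averaging 3 or more in log2 CPM, besides those said to fall outside. That average was taken over all 27 libraries, so a gene low in DMSO could pass through libraries with the agents. Members and lists were chosen with earlier results of these data known. Replicate libraries of a group differed by more than counting noise. Some genes are not reported here.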

Additional observations from a re-analysis of the deposited data

Results flagged for a closer look

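The TKO against PtP contrast differed at least 2-fold from its DMSO value, with an adjusted p under 0.05 by edgeR's quasi-likelihood test of the difference, for 2267 genes with YAPi_NOTCHi and for 2880 genes with COMBO. Among the 89 genes singled out in the text, 4 differed at least 16-fold, all with COMBO and all higher. The log2 difference was 4.10 for E2f1, 4.74 for Mki67, 5.09 for Cenpf and 4.40 for Nek2. E2f1 stood at means of 2.05 CPM in PtP and 49.4 in TKO with COMBO, against 15.5 and 22.2 in DMSO. Cenpf stood at 2.90 and 131 CPM with COMBO, against 39.3 and 52.8 in DMSO. Groups of 3 libraries were not tested for single outlying samples.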

How the results depend on the processing

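Counts of genes that rose or fell stayed within 1.5 times of the reported ones in 118 of 124 refits. The exceptions were genes past 2-fold: 100 rose and 28 fell with DESeq2, 79 and 11 with a stricter filter on low counts, and 100 and 26 with only the 6 libraries compared, fits in which fewer low genes were tested or given a p. Leaving out each library in turn gave 1915 to 2203 genes that rose and 2014 to 2240 that fell, 143 to 164 and 39 to 51 at least 2-fold. It gave 4189 to 4336 and 4875 to 5116 for the YAPi_NOTCHi difference, and 4456 to 4604 and 5448 to 5609 for the COMBO difference. Counts of list members stayed within 1.5 times in 1134 refits, with 73 lower and 15 higher, and list medians moved by less than the spread between replicates in 574 refits and by more in 37. Of the 4895 called genes, 3758 (76.8%) to 4861 (99.3%) kept their call and direction. Of called genes 49.5% rose, against 43.0% with RLE scaling, 42.6% with DESeq2 and 54.7% with upper-quartile scaling, where all-gene medians were -0.0028, 0 and 0.0138. The log2 fold change changed sign for Ccnd1 (0.0075 with upper-quartile scaling, 0.0037 with the stricter filter, -0.0085 to 0.0049 without single libraries), Ccn2 (0.0007 with upper-quartile scaling), and, without single libraries, Rbl2 (-0.13 to 0.0006) and Foxa2 (-0.63 to 1.14), none of them called. Rb1 lost its call with DESeq2 (adjusted p 0.058) and without TKO replicate 1, TKO replicate 2 or PtP replicate 2 (0.0754 to 0.203). The cause was not tested. Same-numbered libraries matched only weakly (correlations 0.042, 0.035 and 0.054, each the highest for its library, against -0.045 to 0.004 for other pairs). A replicate block gave 2411 genes that rose and 2531 that fell. Depth limits calls under about 1 CPM.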
